A study of Mus musculus with 3 samples.

Results

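The change in H3K36me3 over genes from E13.5 to E15.5 (embryonic days) was described in sorted epithelium of the fetal pancreas of the mouse. Genes were joined between the E13.5 and E15.5 libraries by Ensembl identifier, and those with a GB signal above 0 in both libraries were kept, which gave 18454 of 24318 identified genes (75.9%). The cells came from wild-type C57BL/6 embryos, were sorted by flow cytometry on the epithelial surface protein EpCAM, and were profiled by CUT&Tag, in which a transposase tethered to an antibody inserts sequencing adapters beside the marked chromatin. The series held 1 library at each of 3 stages, E11.5, E13.5 and E15.5, which shared strain, genotype, antibody and sorting marker, and the labels gave a mean depth of 20000000 reads. The labels did not say how many embryos were pooled for a library. The series design text wrote the middle stage slightly differently from the sample labels, which were followed. With 1 library per stage, every difference below compares the libraries of those stages, has no replicate check and carries no test.

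H3K36me3 is trimethylation of lysine 36 of histone H3. In mammals SETD2, an enzyme that travels with elongating RNA polymerase II, places most of it, so that the mark typically covers the bodies of transcribed genes, thins out around their promoters and tends to be denser toward their 3′ ends. Between these stages the pancreatic epithelium passes from a largely progenitor state into the period in which acinar, duct and endocrine cells differentiate in number. In a sorted population, a level per gene is an average over all the cells present, and more cells with the mark cannot be told apart from more mark per cell.

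Each row carried a PR, a GB and an SE value, which the sources used here did not spell out. The numbers themselves showed that PR was a sum over a fixed window of 6000 positions divided by that length and SE the same over 12000 positions, because the products were whole multiples of 1 step per library in 100% of values above 0. GB was divided by a length that differed from gene to gene, and that length could be read back from the values for 18046 of the 18454 genes (97.8%). The median length was 21860 positions, and 34.1% of the lengths of 50000 to 500000 positions equalled the length of a gene in RefSeq (GRCm38.p6), against 4.50% after the lengths had been shifted. GB was therefore treated as the mean signal over a window of the size of a gene. PR and SE are called the narrow and the wide fixed window.

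The Ensembl identifiers were not paired with gene names in the tables used here, and none of them matched the reference tables. The acinar, duct, endocrine, hormone and control genes, collected in 18 lists, were therefore not located among the rows, and neither EpCAM nor any other epithelial marker could be checked in the values. The genes are described by their length, their signal in the fixed window and their level in the E11.5 library, which the comparison did not use.

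Over all 18454 genes the typical GB level was nearly the same in both libraries, while the spread between genes was much wider at E15.5. The median GB was 0.00496 in the E13.5 library against 0.00527 in the E15.5 library, and the mean was 0.00625 against 0.00985. The highest 10% of genes began at 0.0117 in the former and 0.0218 in the latter, and the lowest 10% ended at 0.00167 and 0.000838. The distribution at E15.5 was thus wider at both ends, which does not say which genes moved. A gene was counted as different where log2 of (E15.5 + 0.001) over (E13.5 + 0.001) was at least 1 in size, that is, at least 2-fold on that scale, which understates the ratio of low genes. By this count 3969 genes (21.5%) were at least 2-fold higher at E15.5 and 3036 (16.5%) at least 2-fold lower. The median log2 ratio was 0.07. The small excess of higher genes turned when genes at 0 were included, with 19.5% higher and 20.2% lower of 24318. Division by the median GB kept it, with 20.0% higher and 17.3% lower. Quantile normalization gave 17.1% higher and 17.9% lower, but it makes the distributions of GB equal, so it cannot show whether GB differed in general. From E11.5 to E13.5, counted the same way in the 18106 genes above 0 at all 3 stages, 11.8% were at least 2-fold higher and 12.6% at least 2-fold lower. The earlier and the later comparison share the E13.5 library, so their counts are not independent of each other.

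Over all members the fixed window was past 2-fold more often than GB, and mostly in 1 direction. PR was at least 2-fold higher at E15.5 in 8346 genes (45.2%) and at least 2-fold lower in 4223 (22.9%). The windows are unlike in size, with 6000 positions for PR and a median of 21860 for GB. In genes with a GB window under 3000 positions, PR was higher in 49.2% and lower in 18.9%, against 50.6% and 20.8% for GB. The median log2 ratio was 0.74. The mean PR went from 0.00529 to 0.0135 and the median from 0.00407 to 0.00831. At the same time the share of genes with a PR of 0 went from 9.50% to 14.9%, so that the E15.5 library had both more genes without signal in this window and more with a strong signal. The scale of the deposited values was not stated, and forcing both libraries onto the same distribution of PR removed the excess of higher genes, with 49.9% of the differing genes higher in place of 66.4%. The median of PR shifted by -0.74 under that scaling, the size of the whole difference. That scaling makes the distributions of PR equal, so it cannot show whether PR differed in general. Division by the median GB left 65.3% of the differing genes higher and a median log2 ratio of 0.67. The direction was thus kept under division by the median GB, and the quantile scaling cannot bear on it. Because the right scale between the libraries was not known, the direction of a typical PR change was not settled.

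The difference in GB depended on the length of the gene. Genes with a GB window under 3000 positions had a median log2 ratio of 1.04, with 50.6% at least 2-fold higher and 20.8% at least 2-fold lower of 853 genes. Between 3000 and 6000 positions the median was 0.91, with 48.1% higher and 20.4% lower of 1753, and between 6000 and 12000 positions it was 0.45, with 35.2% higher and 21.0% lower of 3005. In short genes above 0 in both libraries the E15.5 level was thus typically the higher one. Genes at 0 in 1 of the libraries are not in these classes. They were 2258 above 0 at E13.5 only and 921 at E15.5 only, with median recovered lengths of 4674 and 2690.5 positions. Genes of 12000 to 50000 positions, the most numerous class with 7856 members, were balanced, with a median of 0.09, 18.5% higher and 18.4% lower. Past that length the sign was the opposite. The median was -0.07 at 50000 to 100000 positions (6.02% higher, 12.3% lower, 2440 genes), -0.10 at 100000 to 200000 (2.02% higher, 6.36% lower, 1384 genes) and -0.19 at 200000 to 500000 (0.397% higher, 2.52% lower, 755 genes). The 408 genes whose length was not recovered had a median of -0.11, with 1.96% higher and 5.15% lower. PR, which has the same window in every gene, had medians of 0.95, 0.97, 0.78, 0.72, 0.83, 0.75 and 0.08 over the same 7 classes from short to long, so that only its last class stood apart.

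**Figure D1:**
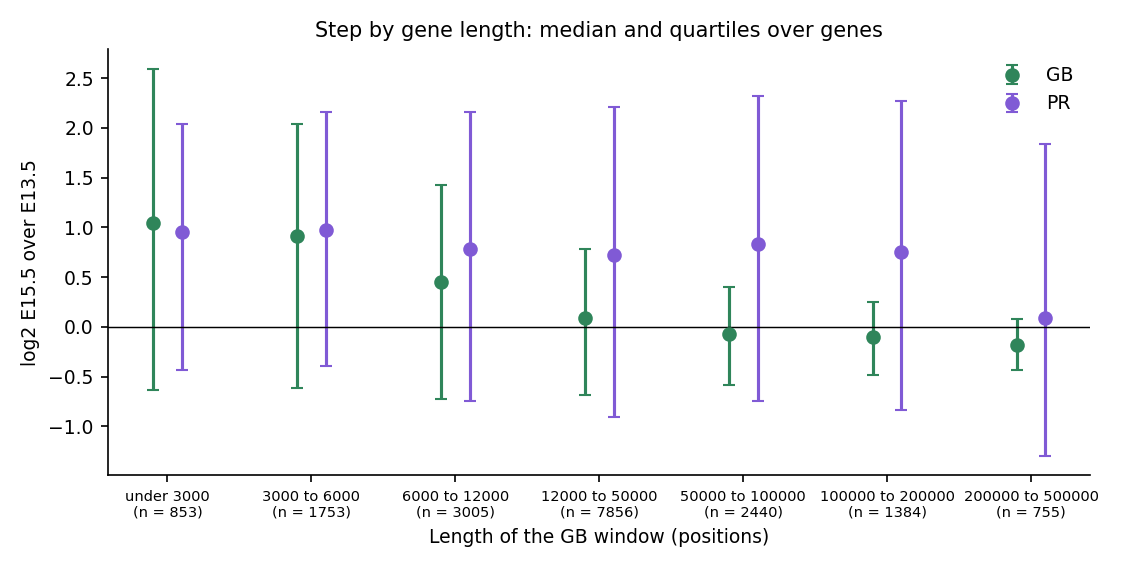
Median log2 ratio of E15.5 over E13.5 (vertical axis) in 7 classes of GB window length in positions (horizontal axis), for GB and PR; points are medians and bars run from the lower to the upper quartile over the genes of a class, which are not replicates. The GB medians go from 1.04 in genes under 3000 positions to -0.19 in those of 200000 to 500000, while the PR medians stay between 0.72 and 0.97 except for 0.08 in the longest class.

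The windows of short genes overlapped, which bears on that pattern. In genes under 1000 positions the summed GB signal was no larger than the summed PR signal in 100% of genes at each stage, and at 2000 to 3000 positions this held in 97.6% to 98.2%. At 3000 to 4000 positions it held in 81.5% to 86.6%, and at 4000 to 6000 in 56.2% to 64.6%. The wide window behaved in the same way at a greater length, with 98.9% to 99.1% at 4000 to 6000 positions and 84.2% to 87.3% at 6000 to 8000. This is what a narrow window reaching 3000 positions and a wide window reaching 6000 positions to each side of 1 end of the gene would give, although no source stated which end. The GB value of a short gene thus repeats signal that PR also holds, and GB differs from PR as a measurement only in longer genes. The rest of the description therefore centres on the 4579 genes of 50000 to 500000 positions, called long genes here, in which the narrow window can hold at most a small part of the gene.

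In long genes the mean GB on the deposited scale was nearly the same in both libraries, but the signal was spread less evenly over the genes at E15.5. The mean GB was 0.00466 in the E13.5 library and 0.00469 in the E15.5 library, a ratio of 1.01, beside 0.00476 in the E11.5 library. With the whole PR sum taken out in both compared libraries, that ratio was 0.895, as described below. In stage order the median was 0.00432, 0.00427 and 0.00378. The 90th percentile of GB was 3.62 times the 10th percentile in the E11.5 library, 3.32 times in the E13.5 library and 6.34 times in the E15.5 library. The highest 10% of genes in each library held 20.8%, 20.2% and 27.5% of the summed GB signal in stage order. The E11.5 and E13.5 libraries thus had nearly the same distribution, and the E15.5 library stood apart from both. Of the 4579 long genes, 42.5% were higher at E15.5 and 57.5% lower, while 178 (3.89%) were at least 2-fold higher and 408 (8.91%) at least 2-fold lower. With a pseudocount of 0.005 in place of 0.001, 44 long genes were at least 2-fold higher and 11 at least 2-fold lower, so both counts and their order depend on the pseudocount, here and wherever the 178 and the 408 genes are described below. From E11.5 to E13.5 the same genes gave 1.79% at least 2-fold higher and 1.83% at least 2-fold lower.

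**Figure D2:**
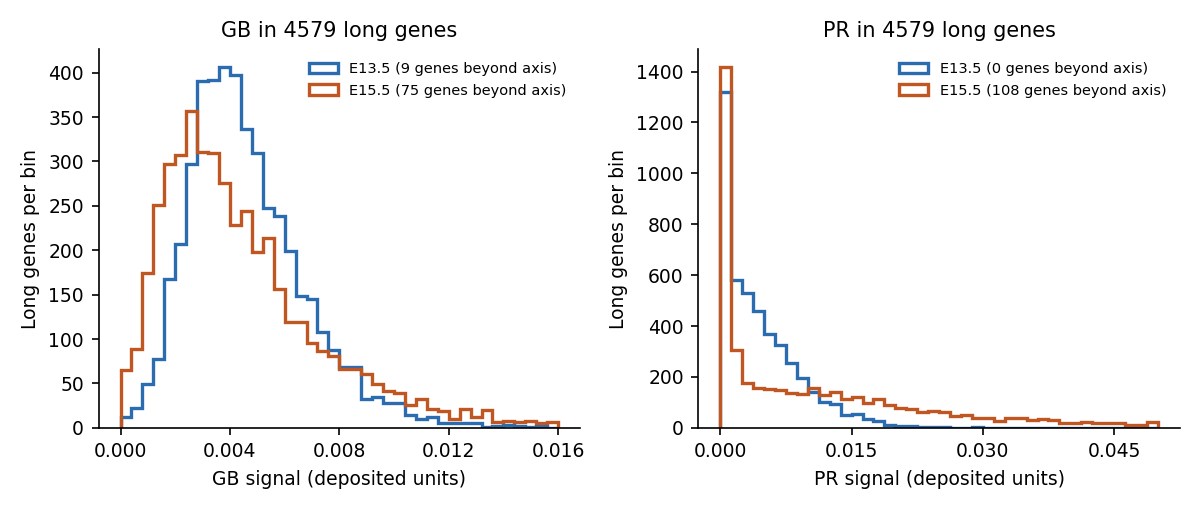
Number of long genes per bin (vertical axis) at each GB (left) and PR (right) signal in deposited units (horizontal axis) in the E13.5 and the E15.5 library; the legend counts genes beyond the axis. The E15.5 curve for GB peaks at lower values and has the longer right tail, with 75 genes at or above 0.016 against 9 at E13.5, and 108 genes have PR at or above 0.05 at E15.5 against 0 at E13.5.

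On the deposited scale, long genes with a high GB in the E11.5 library were on average higher in GB at E15.5 than at E13.5, and those with a low one were on average lower. To look at this without using the compared values, long genes were put into 5 groups of equal size by their GB level in the E11.5 library. In the lowest group, with a median GB of 0.00217 at E11.5, the mean GB went from 0.00288 to 0.00245, a ratio of 0.852. The ratio of the means was 0.917, 0.961 and 1.01 in the next groups. It was 1.14 in the highest group, whose median was 0.00785 at E11.5 and whose mean went from 0.00705 to 0.00803. The ratio therefore ordered by the earlier level without exception over these groups. A scale factor per library would move all these ratios alike, so their order does not depend on it, but the direction of change in a group does. The median log2 ratio per gene followed the same order, at -0.22, -0.18, -0.14, -0.07 and 0.06, and the share of genes higher at E15.5 was 35.8% in the lowest group and 53.8% in the highest. At least 2-fold higher were 25, 27, 36, 29 and 61 genes from the lowest to the highest group, and at least 2-fold lower were 115, 83, 76, 77 and 57. The median length went from 102330 positions in the lowest group to 79610.5 in the highest, and its part in the ordering was not tested. Some PR positions lie within the GB window. The mean PR went from 0.00334 to 0.00733 in the lowest group and from 0.00598 to 0.0158 in the highest. The part of PR in the ordering was not tested either. The 10% of long genes with the highest GB at E11.5, 458 genes, held 16.5% of the summed signal of the E13.5 library and 19.7% of that of the E15.5 library.

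**Figure D3:**
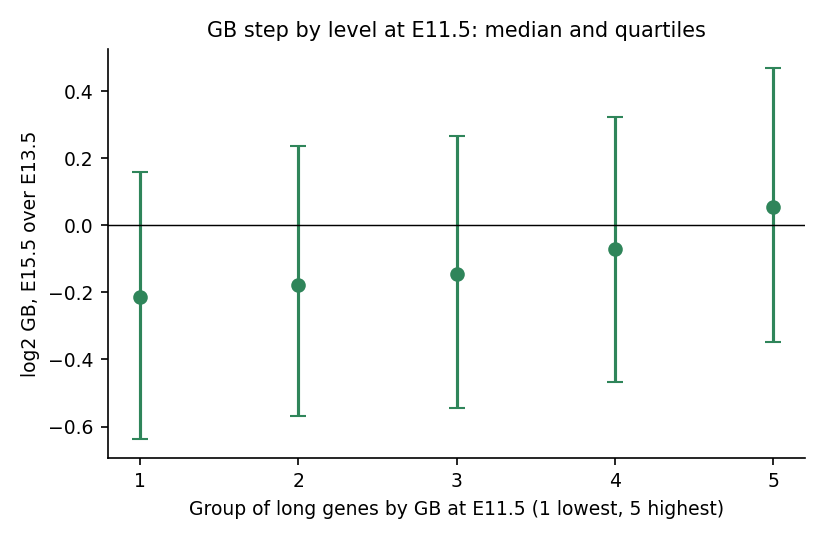
Log2 ratio of GB at E15.5 over E13.5 (vertical axis) in 5 groups of long genes ordered by GB in the E11.5 library (horizontal axis, 915 or 916 genes each); points are medians and bars run between quartiles over genes. The medians climb from -0.22 in the lowest group to 0.06 in the highest, and the quartile bars of neighbouring groups overlap widely.

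The narrow window was also separated by the earlier GB level. Over the same 5 groups the median log2 ratio of PR was 0, 0.63, 0.95, 0.81 and 0.99, and PR was higher at E15.5 in 48.5%, 58.5%, 64.6%, 62.8% and 66.2% of genes. The median PR went from 0.00219 to 0.00167 in the lowest group and from 0.00491 to 0.0116 in the highest. The ratio of mean PR was 2.19, 2.53, 2.86, 2.72 and 2.64, so that the mean was higher at E15.5 in each group, the lowest included. Genes with no PR signal at E15.5 made up 31.2% of the lowest group and 8.41% of the highest, against 19.3% and 5.46% at E13.5. Grouped instead by PR at E11.5, that ratio was 2.27 in the lowest group and 2.67, 2.71, 2.78 and 2.58 in the others.

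In long genes PR was at least 2-fold higher at E15.5 in 2066 (45.1%) and at least 2-fold lower in 1097 (24.0%). In stage order its mean was 0.00487, 0.00455 and 0.0119, and its median was 0.00345, 0.00341 and 0.00701. PR reached 0.02 in 61 long genes of the E11.5 library, in 34 of the E13.5 library and in 985 (21.5%) of the E15.5 library. It was 0 in 7.01%, 11.8% and 17.8% of them. The E15.5 library therefore held both ends of the range more often than either earlier library. Of the 4579 genes, 3366 had PR above 0 in both compared libraries, 674 at E13.5 only, 398 at E15.5 only and 141 in neither. Genes with PR at E13.5 only had a median GB of 0.00366 before and 0.00262 after the step, and those with PR at E15.5 only had 0.00362 and 0.00318.

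The higher PR values at E15.5 were not matched by the positions around the narrow window. Taking the sum of the narrow window from that of the wide window left the outer positions on both sides. The median signal there in long genes was 0.00281, 0.00296 and 0.000652 in stage order, and the mean 0.00425, 0.00417 and 0.00457. The outer positions were at 0 in 9.15%, 13.1% and 36.3% of long genes. The mean PR was 1.14 times the mean of the outer positions in the E11.5 library, 1.09 times in the E13.5 library and 2.60 times in the E15.5 library. A signal that was nearly flat across the wide window in both earlier libraries was thus concentrated in its middle in the E15.5 library, and this contrast within a library does not depend on how the libraries were scaled to each other.

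Long genes with a strong narrow window had a higher median GB, whichever library the narrow window was taken from. The 985 long genes with PR of at least 0.02 at E15.5 had median GB levels of 0.00488, 0.00488 and 0.00552 in stage order. The 1332 long genes with PR under 0.001 at E15.5 had 0.00361, 0.00366 and 0.00268. The quartiles at E11.5 ran from 0.00358 to 0.00671 in the former and from 0.00249 to 0.00518 in the latter, so the groups overlapped broadly. Their median PR at E13.5 was 0.00407 and 0.00274. Between the same limits of PR in the E13.5 library, the median GB at E11.5 was 0.00537 in 34 genes and 0.00389 in 1202, and with PR taken from the E11.5 library itself it was 0.00690 in 61 genes and 0.00352 in 1218. Where PR and GB come from the same library the contrast is partly built in, because some PR positions lie within the GB window. The median length was 89316 positions in the 985 genes and 102661 in the 1332, and its part in the contrast was not tested.

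With both directions of PR pooled, a long gene past 2-fold in the narrow window was no more often past 2-fold over its body than long genes in general. Of the 3163 long genes with PR past 2-fold either way, 2762 (87.3%) had GB within 2-fold, against 87.2% of all 4579, which include the 3163. The pooled share hides a split by direction. GB stayed within 2-fold in 89.3% of the 2066 genes with PR past 2-fold upward. It did so in 83.7% of the 1097 genes with PR past 2-fold downward. GB itself passed 2-fold upward in 124 and downward in 98 of the 2066. For the 1097 these counts were 19 and 160, and for all 4579 they were 178 and 408. Of the 3993 long genes whose GB was within 2-fold, 1844 had PR at least 2-fold higher, 1231 within 2-fold and 918 at least 2-fold lower. The 178 genes with GB at least 2-fold higher had PR higher by as much in 124, within 2-fold in 35 and lower by as much in 19. The 408 genes with GB at least 2-fold lower had PR at least 2-fold higher in 98, within 2-fold in 150 and at least 2-fold lower in 160. The 45.1% and 24.0% over all long genes are the background for the last 3 sets of counts, and some of the PR positions lie within the GB window, so the columns are not separate measurements. In long genes with PR above 0 in both libraries, the PR ratio was above the GB ratio in 72.0%, with a median difference of 1.08 on the log2 scale. Over members of every length it was 65.3% of 14473 genes, with a median difference of 0.66. Without a pseudocount, when a scale factor per library cancels, these were 65.4% and 0.80, and with a pseudocount of 0.005 they were 65.4% and 0.43. Requiring PR above 0 in both libraries left out 674 long genes with PR at E13.5 only and 398 with PR at E15.5 only. Over all members these were 2227 and 1224, so the filter favours a high share.

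**Figure D4:**
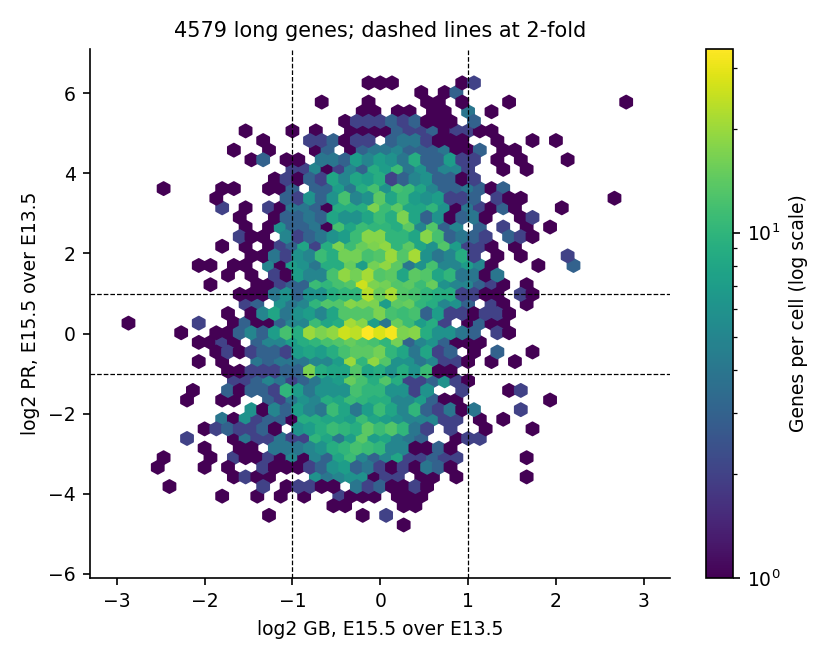
Log2 ratio of GB (horizontal axis) against log2 ratio of PR (vertical axis), E15.5 over E13.5, for 4579 long genes; colour is the number of genes per hexagon on a log scale and dashed lines mark 2-fold. The cloud is narrow in GB and wide in PR, with 1844 genes in the upper middle field, where PR is at least 2-fold higher and GB within 2-fold.

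How much of the body signal of long genes lay outside the narrow window could be bounded only. The summed PR signal came to 5.10%, 4.82% and 13.1% of the summed GB signal of long genes in stage order. Because part of the PR window can lie outside the gene, the mean over the rest of the body is known only between bounds, which were 0.00451 to 0.00482 in the E13.5 library and 0.00404 to 0.00486 in the E15.5 library. The ratio of the means of E15.5 to E13.5 thus lay between 0.837 and 1.08. With the whole PR sum taken out in both libraries it was 0.895, 65.0% of long genes were lower at E15.5 and the median log2 ratio was -0.23. Of the 178 genes at least 2-fold higher, 125 kept that difference with PR taken out in both libraries and 101 kept it at the lowest ratio the bounds allow. Of the 408 at least 2-fold lower, 386 and, at the highest ratio allowed, 351 kept it. Taking PR out moved the ratios of long genes downward in general, to 142 at least 2-fold higher and 681 at least 2-fold lower of all 4579. Lower calls are therefore kept more readily than higher ones, so these counts cannot show which of the sets depended more on the narrow window.

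The genes past 2-fold differed in where they stood in the E11.5 library. The 178 higher genes had median GB levels of 0.00508, 0.00352 and 0.0101 in stage order, so their E13.5 level was the lowest of the 3. The 408 lower genes had 0.00385, 0.00484 and 0.00137, so theirs was the highest. Both sets were chosen on the E13.5 and E15.5 values, which are a description here, and a choice of that kind favours genes whose E13.5 value is extreme. The E11.5 level was nearer to the E13.5 than to the E15.5 level in 121 of the 178 and in 319 of the 408. The same share was not taken over all long genes. Both sets were chosen for an E15.5 level far from the E13.5 level, and the E15.5 library had the widest spread. These counts are therefore not read as a trait of the sets. Median PR was 0.00310, 0.00345 and 0.0197 in the higher genes and 0.00278, 0.00313 and 0.00139 in the lower genes, in the order of the stages. The median length was 65215 positions in the higher and 75112 in the lower genes.

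**Figure D5:**
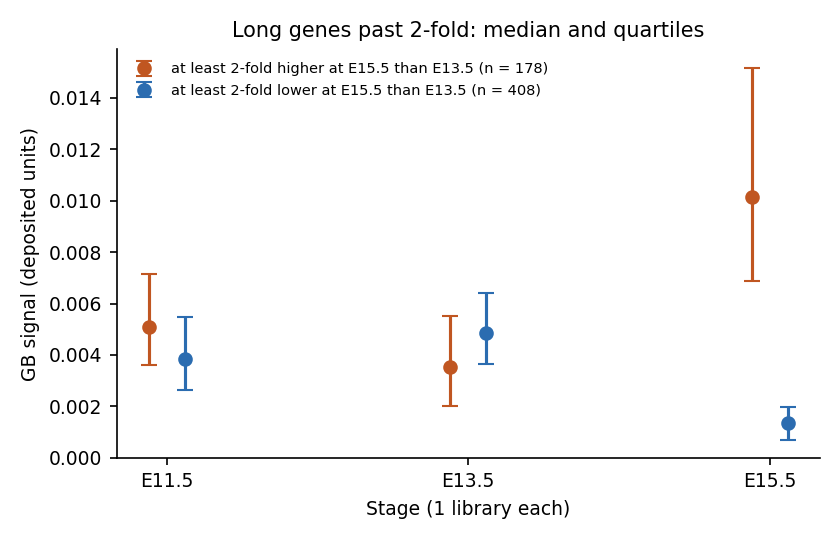
GB signal in deposited units (vertical axis) in the 3 libraries (horizontal axis) of the 178 long genes at least 2-fold higher and the 408 at least 2-fold lower at E15.5 than at E13.5; points are medians and bars run between quartiles over genes. The higher genes stand at 0.00508, 0.00352 and 0.0101 and the lower genes at 0.00385, 0.00484 and 0.00137, by construction apart at E15.5.

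Single genes were taken as the 10 highest and 10 lowest log2 ratios among the 2163 long genes whose higher GB value was at or above 0.00507, the median GB over all members in both libraries. The 10 highest had log2 ratios of 1.98 to 2.75, lengths of 51728 to 75591 positions and PR at least 2-fold higher in all 10, and 3 of them were identifiers with the same values throughout, hence 1 window counted 3 times. The 10 lowest had log2 ratios of -2.90 to -1.97 and lengths of 51485 to 88986 positions, and their log2 ratios of PR ran from -3.81 to 3.72, at least 2-fold lower in 5 and higher at all in 3, among them both lower genes described singly. Over all long genes, PR passed 2-fold upward in 45.1% and downward in 24.0%, and it was higher at all in 60.1%. These shares were not taken over the 2163 genes. The floor keeps a gene through its higher library, and some PR positions lie within the GB window. The PR counts of the genes listed here are therefore partly built in. The lead gene on the higher side, ENSMUSG00000027422, had a GB of 0.00684, 0.00495 and 0.0390 in stage order, a log2 ratio of 2.75. Its PR was 0.00130, 0.000278 and 0.0706, so the narrow window and the body were both highest at E15.5. ENSMUSG00000063358 had a GB of 0.00478, 0.00115 and 0.0132 in the same order, a log2 ratio of 2.72, and a PR of 0.00793, 0 and 0.00988. Its E13.5 library was the low one in both columns, and its PR at E15.5 was close to that at E11.5. On the lower side ENSMUSG00000113986 had a GB of 0.00883, 0.00652 and 5.71e-06, a log2 ratio of -2.90, and a PR of 0.0106, 0 and 0.000163. Signal over this gene was thus nearly absent in the E15.5 library alone, while its PR was low in both compared libraries. ENSMUSG00000049092 had a GB of 0.00195, 0.00596 and 0.000218, a log2 ratio of -2.51, beside a PR of 0.0134, 8.33e-05 and 0.0133. In this gene the body was highest and the narrow window lowest at E13.5, and E11.5 and E15.5 had nearly the same PR. With 1 library per stage these are the values of single windows and have no error.

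Genes with GB in 1 of the compared libraries were mostly short, as far as a length was recovered (1557 and 540 genes). With at most 2 values above 0, their search stopped at 100000 positions and took the shortest fit. Genes also at 0 at E11.5 got no length, so short lengths are partly built in. GB was above 0 at E13.5 only in 2258 genes (9.29%), with a median GB of 0.00486 there and a median recovered length of 4674 positions. It was above 0 at E15.5 only in 921 genes (3.79%), with a median of 0.0111 and 2690.5 positions, and it was 0 in both in 2685 (11.0%). More genes were thus at 0 in the E15.5 than in the E13.5 library, and those seen only at E15.5 had the higher median. Among the members GB was under 0.0005 in 590 genes of the E13.5 library and in 1321 of the E15.5 library, where a ratio rests on very little signal.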

How the data were processed

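H3K36me3 CUT&Tag signal per gene was taken from the 3 tables deposited by the authors, 1 per library. Reads were aligned with Bowtie2 2.4.2 to mm10, per the submitters' processing notes; how reads were turned into signal and scaled was not given in the sources used here. All deposited signal values were whole multiples of 0.162, 0.167 and 0.163 for the libraries in stage order after multiplying by the window length (tolerance 0.0055). Read counts were not recovered, so the depth behind a value is unknown and no interval is given. Of 25493 rows, 1175 (4.61%) without an identifier were left out.

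Log2 ratios with a pseudocount of 0.001 were computed with Python 3.11.15, numpy 2.4.6 and pandas 2.3.3 (figures: matplotlib 3.10.9), and the code was tested on simulated data. A gene's length was the shortest that made every GB value above 0 a multiple of its library's step, searched to 500000 positions, or to 100000 where only 2 values were usable. Earlier forms of this search were replaced after they had given implausible lengths. Named identifiers, at most 2 each way, followed the rule given with them.

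The members and the 18 gene lists were chosen with earlier results of these data known. The length search, the window geometry, the groups by E11.5 level, the PR classes and the bounds outside the narrow window were chosen after seeing the data.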

Additional observations from a re-analysis of the deposited data

How the results depend on the processing

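Over 8 shares, 60 alternative values were computed: 37 stayed within 1.5 times the main count or within the margin set for a share, 22 moved and 1 changed side. With a pseudocount of 0.005, all members were at least 2-fold higher in GB in 13.2% and lower in 4.94%, PR was lower in 10.8%, and long genes were higher in 0.961% and lower in 0.240%, so that the excess of lower long genes was not kept. With none, long genes were higher in 6.66% and lower in 15.9%. A 1.5-fold threshold gave 32.3% and 25.4% for all members and 13.1% and 21.8% for long genes. Restricting the GB comparison to long genes gave 3.89% and 8.91%, and to those of at least 100000 positions 1.45% and 5.0%, with 38.1% of genes higher at all. Taking out the PR sum, an alternative chosen after seeing the data, gave 14.9% lower and 35.0% higher at all. The share of long genes higher at all was 37.5% after division by the median GB and 44.5% after quantile normalization. It was 55.4%, in place of 42.5%, where the higher GB value had to reach the median, a filter that keeps genes through their higher library; at least 2-fold higher were then 7.44%. The PR ratio was above the GB ratio in 72.0% of long genes with PR above 0 in both libraries. Quantile normalization left 48.9% of differing GB calls higher, against 56.7%, a near balance that making the distributions equal favours. Division by the median GB left 53.5%. The alternatives for gene lists and for leaving out X, Y and mitochondrial genes were not run, because identifiers could not be matched to names or positions. No paired analysis was possible because no stage had a replicate. Short windows and values near 0 limit what a ratio can show.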

Other observations

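The 1175 rows without an identifier, which entered no comparison, had a median GB of 0.00141 in the E13.5 library and 0.000637 in the E15.5 library, and 684 of them were above 0 in both libraries. Of the 18454 genes compared, 173 shared every value with another identifier, 32 of them long genes. Counting each such set once changed the shares of GB at least 2-fold higher and lower to 21.5% and 16.5% of 18353 genes, an alternative chosen after seeing the data.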
